A study of Mus musculus with 9 samples.

Results

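Autophagy is the route by which a cell wraps part of its cytoplasm in a double membrane, the autophagosome, and delivers it to lysosomes. The 38 genes described here code for the machinery that builds this membrane, for the receptors that load cargo into it, and for TFEB, a transcription factor of lysosomal and autophagy genes. They were taken by symbol from a table of 18954 genes, and all 38 were found once and passed the filter on low counts. RNA was counted in 9 mouse livers at day 42, 4 labelled GSDMD-NTki/wt and called controls here, and 5 labelled GSDMD-NTki/wt with Alb-creki/wt and called Alb-cre (GSDMD-NT Alb-cre in the plots).

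In both groups the genotype holds 1 knock-in allele of GSDMD-NT. This is the amino-terminal fragment of gasdermin D, which opens pores in membranes. The Alb-cre mice also carried 1 allele expressing Cre recombinase from the albumin promoter, which is active in hepatocytes. The series describes a model of liver fibrosis in which doxycycline induces cell death, but the labels of these samples name no doxycycline and no age. No group had the Cre allele and lacked the knock-in, so Cre itself and the GSDMD-NT fragment cannot be told apart. Separate animals are not stated in the labels, so the p-values reflect spread among these livers that may be technical.

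In nutrient shortage the ULK1 kinase complex starts the process, and a class III phosphatidylinositol 3-kinase complex built on beclin 1 marks the growing membrane with its lipid product. ATG9 and ATG2 supply lipid, and WIPI proteins read the lipid mark. A chain of conjugating enzymes then attaches proteins of the ATG8 family (LC3 and GABARAP) to the membrane, where cargo receptors such as p62, the product of Sqstm1, bind them. In liver the pathway turns over mitochondria, lipid droplets and protein aggregates and supplies amino acids during fasting.

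The finding turned on the ATG8 family, and in particular on Gabarapl1. Its 5 genes are shown by the end of their coding sequence, since ATG4 proteases cut each protein after a glycine that is then joined to a membrane lipid. The capitals mark the codon of the last glycine, and the last codon is the stop (GENCODE M21 transcripts, sense strand).
Map1lc3a: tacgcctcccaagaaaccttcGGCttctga
Map1lc3b: gagacattcGGGacagcaatggctgtgtaa
Gabarap: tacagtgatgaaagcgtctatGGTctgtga
Gabarapl1: tacagtgatgaaagtgtctatGGAaaatga
Gabarapl2: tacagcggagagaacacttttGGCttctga
One codon followed the glycine codon in 4 of the 5 genes and 5 codons followed it in Map1lc3b. The coding sequences of Gabarap and Gabarapl1 were identical at 74.9% of 354 aligned bases, with a longest identical run of 17 bases. Of the 100-base stretches of the longest coding transcript, 0 occurred in a transcript of another gene for Gabarapl1, Gabarap, Map1lc3a, Map1lc3b and Atg101. For Gabarapl2 9.57% of such stretches also occurred in other transcripts. The Map1lc3b gene overlaps a coding gene model, Gm20388, on the same strand and Zcchc14 on the opposite strand. Transcripts of Map1lc3b other than the longest coding one were not searched.

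Few of the 38 genes differed between the groups. With p from the quasi-likelihood test of edgeR, Benjamini-Hochberg adjusted across the 14004 tested genes, 2 passed 0.05 as lower in the Alb-cre group and 0 as higher. The 2 were Gabarapl1 and Atg101. Of all tested genes 18.3% were called, 9.25% higher and 9.07% lower, and of the 38 genes 5.26% were called. At an unadjusted p under 0.05 the numbers were 9 of the 38 (23.7%) and 34.9% of all tested genes. DESeq2 called 4 of the 38 higher and 2 lower (15.8%), where it called 22.3% of all genes it tested, 11.6% higher and 10.6% lower. Limma-voom called 1 higher and 2 lower (7.89%), against 17.9% of all genes, 8.95% in each direction. The median log2 fold change was 0.06 over the 38 and 0.01 over all tested genes, and the median size of the change, sign aside, was 0.14 and 0.31. A change of at least 1.5-fold was measured for 1 of the 38 and for 22.1% of all tested genes. Levels, as counts scaled to library size (TMM-scaled CPM), of the groups did not overlap for 4 of the 38, against 18.5% of all tested genes. Standard errors of the log2 fold changes ran from 0.10 for Wipi2 to 0.25 for Atg10.

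**Figure D1:**
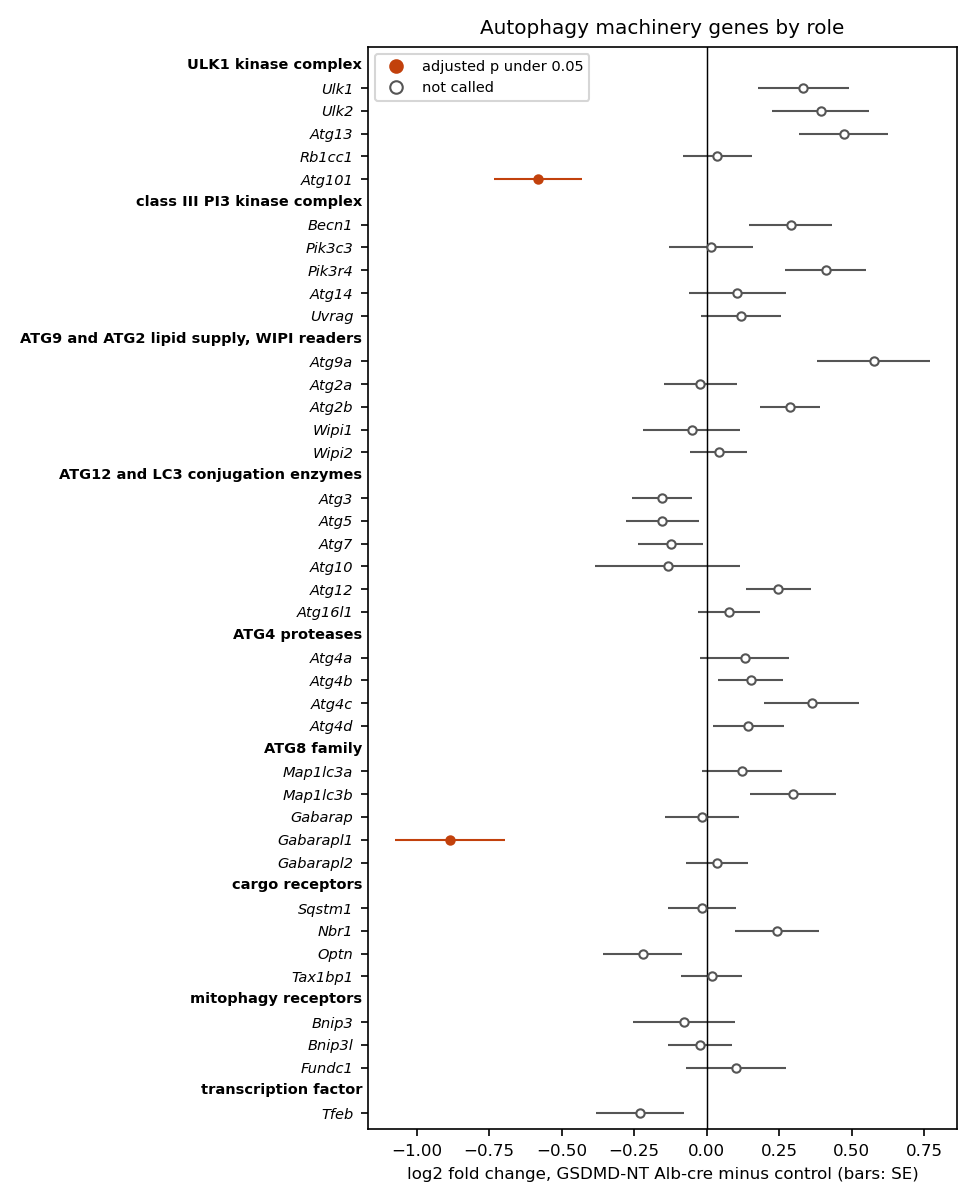
Log2 fold change of each of the 38 genes, Alb-cre minus control, grouped by role, with bars for the standard error from edgeR. The 2 filled points, Gabarapl1 at -0.89 and Atg101 at -0.58, are the only genes at an adjusted p under 0.05 in this fit, and the largest positive value is that of Atg9a at 0.58.

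Libraries held 13361093 to 16823506 counts. The labelled tissue was checked against 8 hepatocyte markers, which summed to 74102 to 93398 CPM in controls and 56490 to 73684 CPM in Alb-cre livers. Most of this sum was Alb, with means of 54199 and 43042 CPM. The markers went both ways. By edgeR 1 was called lower, Ttr (log2 fold change -1.14, adjusted p = 0.00553), and 1 higher, Tat (1.01, adjusted p = 0.0339). Summed markers of Kupffer cells, sinusoidal endothelium, stellate cells, cholangiocytes and erythroid cells overlapped between the groups. By edgeR 1 of 8 Kupffer cell markers was called higher, Timd4 (0.84, adjusted p = 0.0351). So was 1 of 6 endothelial markers, Lyve1 (1.65, adjusted p = 0.0262). Of 5 erythroid markers 1 was called lower, Hba-a2 (-1.34, adjusted p = 0.0267). Of the stellate cell and cholangiocyte markers 0 were called. The 6 neutrophil markers in the table summed to 0.51 to 1.31 CPM in controls, with Mpo at 0. In Alb-cre 1 to 5 they summed to 2.99, 4.13, 0.17, 3.13 and 3.52 CPM. Only S100a9 of these 6 passed the count filter, and it was not called (adjusted p = 0.209 by edgeR). Lymphocyte markers summed to 4.97 to 8.13 CPM in controls and 2.13 to 3.57 CPM in Alb-cre livers. Acute phase genes summed to 4091 to 5475 CPM in controls and to 24763, 91368, 5599, 11428 and 33828 CPM in Alb-cre 1 to 5. The slope of expression on transcript length, in log2 units per doubling of length against the mean of all livers, was -0.09 to 0.01 in controls and -0.01 to 0.07 in Alb-cre livers. It was lowest in controls 4 and 2, and control 4 also had the largest share of mitochondrially encoded counts at 9.55%, against 4.23 to 6.88% in the other livers.

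The ATG8 proteins coat the autophagosome and hold the receptors and adaptors that bind it. In this family Gabarapl1 fell and no other member passed the test. Gabarapl1 measured 303, 294, 321 and 268 CPM in controls 1 to 4. It measured 132, 106, 204, 210 and 149 CPM in Alb-cre 1 to 5. Every Alb-cre liver lay below every control, with livers 2 and 1 lowest and livers 3 and 4 highest of their group. The means were 296 ± 22.1 CPM (SD, n = 4) and 160 ± 45.6 CPM (SD, n = 5), a log2 fold change of -0.89 ± 0.19 (SE, adjusted p = 0.0108 by edgeR, lower in 5 of 5 livers). The call stood in each of the 9 fits that left out 1 liver, with log2 fold changes of -1.0 to -0.77 and adjusted p = 0.00706 to 0.0319. It was lost in a fit that dropped controls 2 and 4 together, which was added after the data were seen, at -0.96 ± 0.24 and adjusted p = 0.0928, where 0.5% of all tested genes were called.

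Gabarapl1 was lowest in the 3 Alb-cre livers with the highest acute phase sums. Alb-cre 2 had the highest sum, 91368 CPM, and the lowest Gabarapl1, while Alb-cre 3, with a sum of 5599 CPM close to the control maximum of 5475 CPM, had 204 CPM of Gabarapl1, still below the lowest control. The groups also differed in the summed hepatocyte markers given above, though single markers went both ways. The part of the acute phase sum or of the hepatocyte sum in the fall was not tested. In whole liver, fewer cells of a type and less RNA per cell cannot be told apart. Gabarapl1 has a merged exon length of 1820 bases, and with a correction for transcript length its log2 fold change was -0.81 ± 0.19 (adjusted p = 0.0176). The annotation places a transcript on the opposite strand and another on the same strand within the Gabarapl1 locus, and whether counting used strand is not given here.

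**Figure D2:**
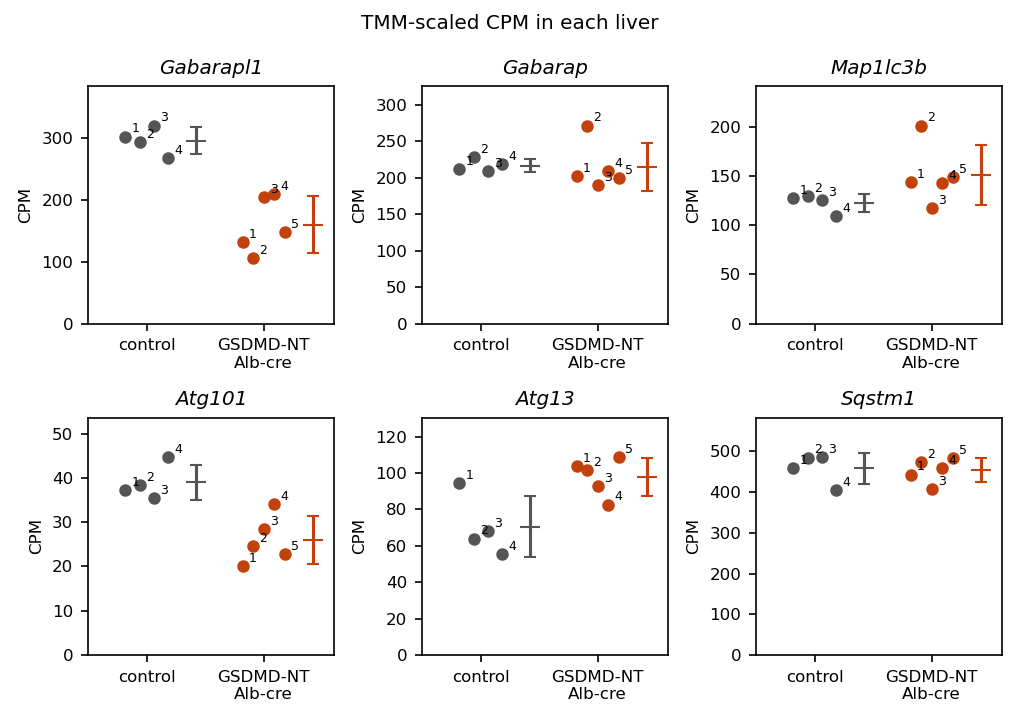
TMM-scaled CPM in each liver for 6 of the genes, with numbers for the replicate, and the mean with its SD beside the points. Gabarapl1 and Atg101 do not overlap between the groups, Sqstm1 lies between 404 and 486 CPM in all livers, and Gabarap and Map1lc3b stand highest in Alb-cre 2.

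The other 4 family members did not follow Gabarapl1. Gabarap, its closest relative here, measured 211, 228, 208 and 218 CPM in controls 1 to 4 and 202, 271, 190, 209 and 199 CPM in Alb-cre 1 to 5. The groups overlapped and the log2 fold change was -0.02 ± 0.13 (adjusted p = 0.946). Map1lc3b, which codes for the LC3 form most used to follow autophagosomes, measured 127, 130, 125 and 109 CPM in controls and 144, 201, 117, 143 and 149 CPM in Alb-cre livers. All Alb-cre livers but the third lay above the controls, and the log2 fold change of 0.30 ± 0.15 did not pass the test (adjusted p = 0.177). Map1lc3a was at 0.12 ± 0.14 and Gabarapl2 at 0.04 ± 0.11 on the log2 scale, both short of the threshold (adjusted p = 0.559 and 0.84).

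The composition of the family differed between the groups. Divided by merged exon length, Gabarapl1 held 37.7 to 42.5% of the summed ATG8 level in controls and 16 to 33.2% in Alb-cre livers. Gabarap held 37.2 to 41.8% in controls and 41.7 to 55.1% in Alb-cre livers. Map1lc3b held 5.44 to 6.14% and 6.71 to 10.7%. The Map1lc3b shares may be too low, since its merged exons span 5182 bases and its longest coding transcript has only 2534 stretches of 100 bases. The ratio of Gabarapl1 to Gabarap in CPM was 1.22 to 1.54 in controls and fell to 1.01 to 1.07 in Alb-cre 3 and 4 and to 0.39 to 0.75 in the other 3. These shares move together by construction and were given no test.

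**Figure D3:**
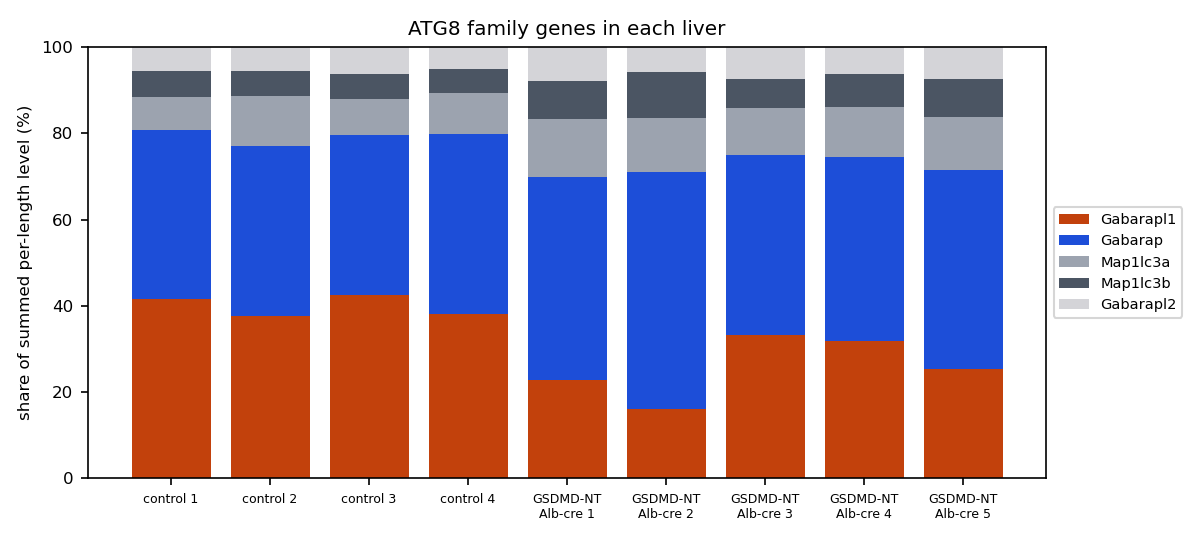
Share of each ATG8 family gene in the family's summed level per unit of merged exon length, in percent, for each of the 9 livers. The Gabarapl1 segment is 37.7 to 42.5% in the 4 controls and 16 to 33.2% in the 5 Alb-cre livers, lowest in Alb-cre 2.

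The ULK1 complex joins the kinases ULK1 or ULK2 to ATG13, ATG101 and the scaffold FIP200, the product of Rb1cc1. Here 1 of 5 members was lower, Atg101, whose product binds and stabilises ATG13. Atg101 measured 37.3, 38.5, 35.5 and 44.7 CPM in controls 1 to 4 and 20.1, 24.6, 28.4, 34.2 and 22.9 CPM in Alb-cre 1 to 5. The groups did not overlap, though Alb-cre 4 came close to control 3. The log2 fold change was -0.58 ± 0.15 (adjusted p = 0.0231 by edgeR, lower in 5 of 5 livers). The call was lost without control 2 (adjusted p = 0.0577), control 4 (adjusted p = 0.0704), Alb-cre 1 (adjusted p = 0.0584) or Alb-cre 5 (adjusted p = 0.0526), and with controls 2 and 4 both left out (-0.48 ± 0.19, adjusted p = 0.204). Its merged exon length is 1270 bases, and the length-corrected value was -0.45 ± 0.14 at an adjusted p of 0.0499.

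Atg13, the partner of ATG101, had a positive value that did not pass the test. It measured 94.4, 64.0, 68.2 and 55.6 CPM in controls and 104, 102, 92.6, 82.7 and 109 CPM in Alb-cre livers. Control 1 lay within the range of the Alb-cre livers and the other 3 controls lay below it. The log2 fold change was 0.47 ± 0.15 (adjusted p = 0.0515), and it passed without control 1 (0.65 ± 0.13, adjusted p = 0.0128) and without Alb-cre 4 (0.53 ± 0.16, adjusted p = 0.0456). It was smaller without control 4 (0.37, adjusted p = 0.139) and with controls 2 and 4 both left out (0.27, adjusted p = 0.4). The ratio of Atg13 to Atg101 in CPM was 1.24 to 2.53 in controls and 2.42 to 5.18 in Alb-cre livers, so the lowest of the latter fell within the controls. Ulk1 measured 132, 166, 135 and 96.5 CPM in controls and 180, 144, 194, 150 and 165 CPM in Alb-cre livers, overlapping, with a log2 fold change of 0.33 ± 0.16 (adjusted p = 0.153). Ulk2 was at 0.39 ± 0.17 (adjusted p = 0.12) and Rb1cc1 at 0.04 ± 0.12 (adjusted p = 0.85).

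The promoters of the 2 genes that fell are shown as given by RefSeq, 250 bases before and 50 after the annotated start, to let them be compared. In the Gabarapl1 window the capitals mark the only match to TTGTTTA, the core of the element bound by FOXO factors, on the reverse strand and starting 94 bases before the first transcribed base. This motif was picked after the window was read.
Gabarapl1, GRCm38.p6 chr6:129532942-129533241, plus strand: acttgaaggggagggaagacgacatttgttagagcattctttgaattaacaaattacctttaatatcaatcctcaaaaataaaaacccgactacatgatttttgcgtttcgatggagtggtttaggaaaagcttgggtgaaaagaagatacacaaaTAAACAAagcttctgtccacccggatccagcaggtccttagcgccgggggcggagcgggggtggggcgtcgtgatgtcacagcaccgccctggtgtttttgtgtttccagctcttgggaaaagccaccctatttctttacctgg
Atg101, GRCm38.p6 chr15:101284051-101284350, plus strand: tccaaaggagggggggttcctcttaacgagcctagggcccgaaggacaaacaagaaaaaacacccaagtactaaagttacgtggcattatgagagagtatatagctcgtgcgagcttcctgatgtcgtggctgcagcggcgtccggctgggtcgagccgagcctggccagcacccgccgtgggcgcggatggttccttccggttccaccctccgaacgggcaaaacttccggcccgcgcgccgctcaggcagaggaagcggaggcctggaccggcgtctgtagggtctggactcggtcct
Windows were found for 31 of the 38 genes, 37 windows in all, and both strands were searched. A gene counts if any of its windows has a match, while the percentages are of windows, so these are unlike units. TTGTTTA occurred for Gabarapl1, Atg4a and Wipi2, that is 3 of 31 genes, and in 4.23% of all 32851 windows. CACGTG, the core of the E-box bound by TFEB, occurred for Atg3, Atg5, Atg7, Atg14 and Bnip3, 5 of 31, and in 7.15% of all windows. The forkhead motif GTAAACA occurred for 0 of 31 and in 3.65%, and TGACNNNGC, the core of the antioxidant response element bound by NRF2, for 4 of 31 and in 12.4%. These are matches of letters, not measured binding.

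The class III kinase complex makes the phosphatidylinositol 3-phosphate that marks the growing membrane, and 0 of its 5 genes were called. All 5 values were positive, as were 51.2% of all tested genes. With the correction for transcript length Pik3c3 was at -0.05, Uvrag at 0.04, Atg14 at 0.07, Becn1 at 0.22 and Pik3r4 at 0.34. Becn1, which codes for the scaffold beclin 1, measured 39.9, 31.1, 38.1 and 25.0 CPM in controls and 42.0, 44.7, 43.7, 36.1 and 38.6 CPM in Alb-cre livers. The groups overlapped, and controls 2 and 4 were the lowest livers (log2 fold change 0.29 ± 0.14, adjusted p = 0.17). Pik3r4, the regulatory subunit VPS15, was at 0.41 ± 0.14 (adjusted p = 0.0595) and passed without Alb-cre 4 (adjusted p = 0.0396). Its value was smaller without control 4 (0.34, adjusted p = 0.155) and with controls 2 and 4 both left out (0.24, adjusted p = 0.427). The catalytic subunit gene Pik3c3 was at 0.02 ± 0.15, and Atg14 and Uvrag, which direct the complex to autophagosomes and endosomes, were at 0.11 ± 0.17 and 0.12 ± 0.14 (adjusted p = 0.952, 0.683 and 0.568).

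ATG9 vesicles seed the membrane and ATG2 proteins transfer lipid into it. Atg9a measured 37.1, 30.1, 35.0 and 18.6 CPM in controls and 42.7, 46.3, 40.6, 37.3 and 58.4 CPM in Alb-cre livers. The groups did not overlap, but control 1 and Alb-cre 4 nearly met, and control 4 stood well below the other controls. The log2 fold change of 0.58 ± 0.19 did not pass (adjusted p = 0.0575), but did without control 1 (0.70 ± 0.21, adjusted p = 0.0438). It was smaller without control 4 (0.40, adjusted p = 0.118) and with controls 2 and 4 both left out (0.32, adjusted p = 0.337). The Atg9a value is uncertain, since 39.7% of its 100-base stretches are shared with an overlapping transcript of the same strand. Atg2b also did not overlap between the groups, at 31.7, 30.7, 35.5 and 29.4 CPM in controls and 35.7, 38.8, 41.1, 36.4 and 42.2 CPM in Alb-cre livers, and did not pass (0.29 ± 0.10, adjusted p = 0.0724). Atg2a, Wipi1 and Wipi2 lay between -0.05 and 0.04 on the log2 scale (adjusted p = 0.795 to 0.924).

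The enzymes that attach ATG12 to ATG5 and ATG8 proteins to lipid include the E1-like ATG7, the E2-like ATG3 and ATG10, and ATG16L1, which places the conjugate on the membrane. Of these 6 genes 0 were called. Atg5 measured 45.3, 42.7, 46.6 and 44.0 CPM in controls and 43.8, 30.9, 47.2, 37.1 and 41.6 CPM in Alb-cre livers, with Alb-cre 2 lowest and the groups overlapping (log2 fold change -0.15 ± 0.13, adjusted p = 0.411). Atg3, Atg7 and Atg10 were also slightly negative, Atg12 and Atg16l1 positive, and the range over the role was -0.15 to 0.25 on the log2 scale. The 4 ATG4 protease genes, which trim ATG8 proteins and free them again, were all positive, from 0.13 to 0.36, and 0 were called (adjusted p = 0.138 to 0.57). Of all tested genes 51.2% were positive, and with the length correction these 4 were at 0.06 to 0.35. The Atg4a value is uncertain, since 44.2% of its 100-base stretches also occur in the pseudogene Atg4a-ps.

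Cargo receptors bind ubiquitin-tagged or other cargo and the ATG8 coat, and 0 of 4 were called. Sqstm1 measured 459, 485, 486 and 404 CPM in controls 1 to 4 and 443, 473, 408, 459 and 484 CPM in Alb-cre 1 to 5. The groups covered nearly the same range, and the log2 fold change was -0.02 ± 0.12 (adjusted p = 0.937). Its gene overlaps Mrnip on the opposite strand. Nbr1 and Tax1bp1, which act beside p62, were at 0.24 ± 0.14 and 0.02 ± 0.10, and Optn, a receptor of damaged mitochondria and bacteria, was at -0.22 ± 0.14 (adjusted p = 0.251, 0.924 and 0.274).

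The mitophagy receptors sit in the outer mitochondrial membrane and bind ATG8 proteins without ubiquitin, and 0 of 3 were called. Bnip3 measured 45.1, 53.5, 48.8 and 32.9 CPM in controls and 50.3, 33.7, 52.9, 42.3 and 33.9 CPM in Alb-cre livers, an overlap of nearly the whole range (log2 fold change -0.08 ± 0.18, adjusted p = 0.78). Bnip3l and Fundc1 were at -0.02 ± 0.11 and 0.10 ± 0.17 (adjusted p = 0.905 and 0.711). Part of the Bnip3 and Bnip3l transcripts is shared with pseudogenes, 9.41% and 15.3% of 100-base stretches. Tfeb measured 17.5, 19.9, 14.7 and 21.0 CPM in controls and 14.1, 17.6, 16.5, 17.6 and 12.1 CPM in Alb-cre livers. The groups overlapped, with a log2 fold change of -0.23 ± 0.15 (adjusted p = 0.301). TFEB is controlled largely by its place in the cell, which RNA counts do not show.

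Per unit of merged exon length, the highest levels of the 38 genes in controls were those of Gabarapl1, Sqstm1 and Gabarap. They stood at 318, 317 and 312 on a scale like TPM (CPM divided by length and rescaled), followed by Nbr1 at 79.5. Merged exons can be longer than any single transcript, which lowers a gene on this scale. In Alb-cre livers the same scale gave 184 for Gabarapl1, 329 for Sqstm1 and 322 for Gabarap. The lowest in controls were Rb1cc1, Fundc1 and Atg10, at 6.83, 5.89 and 5.02.

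Longer genes of the set tended to have more positive values. The 19 genes below the median merged exon length of 3872.5 bases had a median log2 fold change of -0.02 and the 19 above it 0.15. All tested genes split at the same length gave -0.05 and 0.12. With the length correction the medians were -0.0037 below and 0.096 above the median length, and 21 of the 38 values were positive in place of 24. The number of called members was the same, 0 higher and 2 lower, where 15.7% of all genes were called, 7.99% higher and 7.68% lower, while the number at an unadjusted p under 0.05 went from 9 to 5. Among the longer genes with positive values, Pik3r4 went from 0.41 to 0.34 (adjusted p = 0.111 with the correction) and Atg2b from 0.29 to 0.20 (adjusted p = 0.19). Atg9a went from 0.58 to 0.52 (adjusted p = 0.083) and Ulk1 from 0.33 to 0.25 (adjusted p = 0.272).

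**Figure D4:**
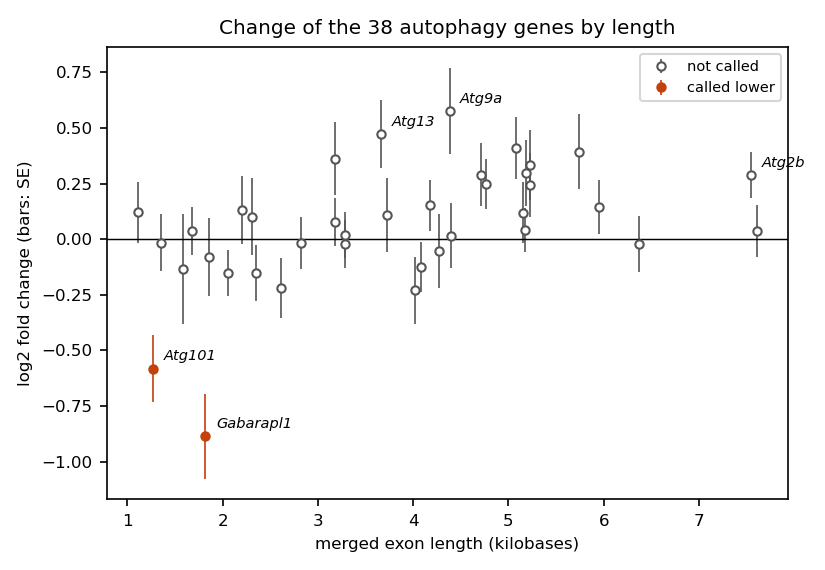
Log2 fold change (Alb-cre minus control, bars for the standard error) of the 38 genes against merged exon length in kilobases. The 2 genes called lower, Atg101 and Gabarapl1, are 1270 and 1820 bases long, and the median is -0.02 below and 0.15 above the median length.

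Beyond the 38 genes, 42 further genes of autophagy held 4 higher and 4 lower among 41 tested (19.5% called, against 18.3% of all tested genes). Trp53inp2, whose product binds ATG8 proteins, measured 184, 211, 208 and 142 CPM in controls and 408, 352, 324, 271 and 367 CPM in Alb-cre livers. It rose without overlap (log2 fold change 0.89 ± 0.16, adjusted p = 0.00586). Tollip, a ubiquitin-binding receptor, rose from 43.7 ± 6.89 CPM to 78.6 ± 8.60 CPM (0.85 ± 0.13, adjusted p = 0.00429), and Bcl2l13, a mitophagy receptor whose gene overlaps Bid on the opposite strand, by 0.70 ± 0.17 on the log2 scale (adjusted p = 0.0183). Atg9b, a second ATG9 gene, had 3 to 4 counts per control and 7 to 73 per Alb-cre liver (adjusted p = 0.0209). It passed the count filter only through Alb-cre livers, the group where it was high. Its call, counted among the 4 higher, is therefore no support for a rise. It overlaps Nos3 on the opposite strand. The call was lost with limma-voom (log2 fold change 2.28, against 2.94 with edgeR, adjusted p = 0.0589) and without control 2 or 4 (adjusted p = 0.0599 and 0.0606). It fell below the count filter in the 4 fits that left out an Alb-cre liver other than Alb-cre 3.

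Among those that fell, Vamp8 codes for a membrane fusion protein of autophagosomes and lysosomes, Calcoco1 and Tex264 for receptors of endoplasmic reticulum, and Wdr45, which shares its strand with an overlapping gene model, for a WIPI relative. Vamp8 measured 149, 162, 154 and 189 CPM in controls and 105, 121, 122, 113 and 104 CPM in Alb-cre livers, with no overlap (-0.53 ± 0.11, adjusted p = 0.0106). Calcoco1 fell by 0.66 on the log2 scale (SE 0.16, adjusted p = 0.0158) and missed the threshold without control 4 (adjusted p = 0.0512). The calls of Tex264 (-0.37 ± 0.10, adjusted p = 0.0279) and Wdr45 (-0.66 ± 0.18, adjusted p = 0.0265) were lost without control 2, control 4 or Alb-cre 1 (adjusted p = 0.0543 to 0.0856), and that of Tex264 also without Alb-cre 5 (adjusted p = 0.0558), with the length correction (adjusted p = 0.0567) and with library totals alone (adjusted p = 0.0638). The number of lower genes in this list was 2 without control 2 or Alb-cre 1 and 1 without control 4.

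Upstream of ULK1, the kinase complex mTORC1 holds autophagy back when amino acids are plentiful and AMPK releases it when energy is short. Of 31 such genes tested, 2 were higher and 4 lower (19.4% called, against 18.3% of all tested genes). Flcn, whose product folliculin with FNIP proteins acts on the Rag GTPases that place TFEB at the lysosome, measured 66.6, 80.0, 65.7 and 77.2 CPM in controls 1 to 4. In Alb-cre 1 to 5 it measured 30.1, 37.7, 36.0, 36.7 and 39.7 CPM. Every Alb-cre liver lay well below every control, with a log2 fold change of -1.0 ± 0.11 (adjusted p = 9.51e-04). This call stood in each fit that left out 1 liver and was the 1 call of the list left with controls 2 and 4 both left out. Its partner Fnip1 also fell (-0.45 ± 0.14, adjusted p = 0.0403), but this call was lost without any 1 of 7 livers (adjusted p = 0.0519 to 0.1), namely controls 2, 3 and 4 and Alb-cre 1 to 4. It was also lost with library totals alone (adjusted p = 0.0606) and with no low-count filter (adjusted p = 0.051).

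Ddit4, also called REDD1, which restrains mTORC1 under stress, measured 4.81, 4.33, 2.71 and 6.57 CPM in controls and 21.7, 30.8, 12.8, 11.8 and 7.37 CPM in Alb-cre livers. It rose without overlap, with Alb-cre 5 close to control 4 (log2 fold change 1.86 ± 0.39, adjusted p = 0.00994). Mlst8, a subunit of both mTOR complexes, rose by 0.67 ± 0.18 on the log2 scale (adjusted p = 0.0253), a call lost without control 1 or 4 or Alb-cre 1 or 5 (adjusted p = 0.0528 to 0.0701). The number of higher genes was 1 without control 4, Alb-cre 1 or Alb-cre 5. Tsc1, part of the brake on mTORC1, fell from 36.0 ± 2.13 CPM to 25.7 ± 1.67 CPM (-0.48 ± 0.10, adjusted p = 0.00927). Lamtor4, part of the lysosomal anchor Ragulator, fell by 0.57 on the log2 scale (SE 0.12, adjusted p = 0.0103).

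**Figure D5:**
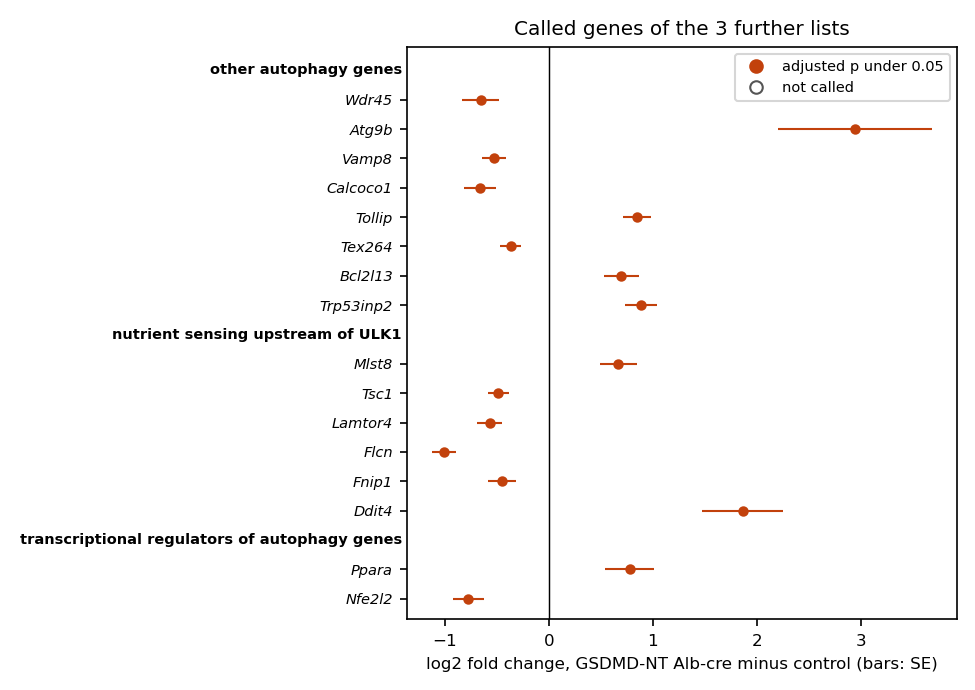
Log2 fold change (Alb-cre minus control, bars for the standard error) of the called genes in the 3 further lists, which are other autophagy genes, nutrient sensing genes and transcriptional regulators. Ddit4 at 1.86 and Flcn at -1.0 are the outermost values of the nutrient sensing list. Atg9b at 2.94 rests on 3 to 4 counts per control and passed the count filter only through Alb-cre livers.

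Of 15 transcription factors and coregulators that act on autophagy genes 1 was higher and 1 lower (13.3% called, against 18.3% of all tested genes). Nfe2l2, which codes for NRF2, an activator of Sqstm1 among other genes, measured 87.1, 108, 94.5 and 108 CPM in controls and 48.5, 45.3, 74.0, 63.6 and 59.0 CPM in Alb-cre livers. It fell without overlap (log2 fold change -0.77 ± 0.15, adjusted p = 0.00772). Ppara, a fasting receptor of hepatocytes, was higher at 66.8 ± 15.9 CPM in controls and 115 ± 34.5 CPM in Alb-cre livers (0.78 ± 0.24, adjusted p = 0.0398). The groups overlapped, and the call was lost without control 2 or 4 or any of Alb-cre 1, 3, 4 and 5 (adjusted p = 0.0517 to 0.118), and with library totals alone (adjusted p = 0.0558).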

How the data were processed

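The 38 members and the lists set beside them were chosen with earlier results of these data known. Libraries kept strand, followed ribosomal RNA depletion and were read from both ends, per the labels' protocols. The tools named are HISAT2 2.1.0 and fastp 0.23.2, on build GRCm39, per the submitters' processing notes. Not given in these sources are the counting tool, its strand option and its annotation. The authors deposited whole-number counts per gene without normalization, and no per-sample column was left unused.

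Counts were tested in R 4.3.3 with edgeR 4.0.16 (filterByExpr, TMM, glmQLFit and glmQLFTest by group, no covariate) over 14004 genes, with Benjamini-Hochberg adjustment over all of them and calls under 0.05. Each standard error is the size of the log2 fold change over the square root of F. Levels are TMM-scaled CPM. Lengths are merged exons of GENCODE M21, an annotation of another build, used with no coordinates.

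Values in every liver are given for called members and for Ulk1, Becn1, Atg5, Map1lc3b, Gabarapl1, Sqstm1, Bnip3 and Tfeb. From each further list the called genes were named, up to 6 in each direction. Members with an adjusted p under 0.1 and Gabarap were added after their values were seen. Alternatives were other scalings, DESeq2 1.42.0, limma-voom (limma 3.58.1), other count filters, a replicate block, each liver left out, a length correction and removal of mitochondrial and the 20 most abundant genes. Livers within a group all differed by more than sampling noise. Figures were drawn with matplotlib 3.10.9.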

Additional observations from a re-analysis of the deposited data

Results flagged for a closer look

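In 4 of 108 combinations of gene and group, 1 liver stood apart from the rest of its group by Dixon's test, and chance flags about 1 in 20. Gabarap was at 271 CPM in Alb-cre 2, against 190 to 209 CPM in the other 4 livers of that group. Optn, a cargo receptor gene, was at 108 CPM in control 3, against 95.6 to 97.7 CPM in the other controls. Atg9b was at 4.86 CPM in Alb-cre 2, against 0.404 to 1.27 CPM in the others of its group. Wdr45 was at 8.64 CPM in Alb-cre 5, against 5.86 to 6.54 CPM.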

How the results depend on the processing

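Of the 38 genes, 2 were lower and 0 higher in the main test. The number higher was 4 with DESeq2 and 1 with limma-voom, with the CPM filter (at least 1 in at least 4 livers) and with the replicate block. Leaving out 1 liver gave 0 to 2 higher and 1 to 2 lower, and leaving out controls 2 and 4 together gave 0 lower. In the other 41 autophagy genes tested, DESeq2 gave 7 higher, leaving out 1 liver gave 3 to 5 higher and 1 to 5 lower, and without controls 2 and 4 there were 0 of either. Nutrient sensing genes numbered 4 higher with DESeq2 and 4 with the CPM filter, where 22.3% and 20.2% of all genes were called in either direction. With 1 liver left out they numbered 1 to 3 higher and 3 to 4 lower, and without controls 2 and 4 there were 0 higher and 1 lower. Transcriptional regulators numbered 0 higher with library totals alone, 2 with DESeq2 and 2 with the replicate block, 0 to 1 higher and 1 lower with 1 liver left out, and 0 of either without controls 2 and 4. Over all genes, calls numbered 1296 higher and 1270 lower in the main test. Leaving out control 1 gave 1197 and 1096, control 2 gave 567 and 627, control 3 gave 1149 and 1181, and control 4 gave 588 and 625. Without Alb-cre 1 the numbers were 755 and 658, without Alb-cre 2 1171 and 1182, and without Alb-cre 3 1339 and 1184. Without Alb-cre 4 they were 1134 and 1048, without Alb-cre 5 805 and 801, and without controls 2 and 4 together 29 and 44. Upper-quartile factors gave 1140 higher and 1434 lower. The replicate block gave 923 and 819. Only the Alb-cre group has a replicate 5, so with the block Alb-cre 5 adds nothing to the difference between the groups. The labels name no pairs of livers, and deviations of same-numbered livers from their group means correlated at -0.01 to 0.13 across genes. The submitters' column numbers differ in part from these replicate numbers, and pairing by them was not tested. With the block Atg13 was called (0.45 ± 0.12, adjusted p = 0.0487) and the calls of Tex264, Fnip1 and Mlst8 were lost (adjusted p = 0.0615, 0.0551 and 0.0775). Sqstm1 log2 fold change, -0.02 in the main test, ranged from -0.072 to 0.031 with 1 liver left out and was above 0 without control 2 (0.013), control 3 (0.013) or Alb-cre 3 (0.031). Bnip3 log2 fold change, -0.08 in the main test, ranged from -0.20 to 0.015, above 0 without control 2. None of these was called. Gabarapl1 was called in 19 of 20 alternatives and Atg101 in 15. Fewer livers leave fewer degrees of freedom. Among fits with the same number of livers, the number of calls also differed with the liver left out, and the cause was not tested.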
